A study of Mus musculus with 8 samples.

Results

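Expression of 8 genes of Schwann cells and myelin, Mbp, Pmp22, Prx, Cnp, Mag, Ngfr, Sox10 and S100b, was measured by RNA-seq in mouse muscle stem cells. The genes were picked by symbol. Each stood on 1 of the 45706 gene lines used, and all 8 were among the 19054 genes that passed a filter on low counts. Both groups came from hindlimb muscle of wild-type C57BL/6 females aged 8 to 12 weeks. Cells positive for α7-integrin and CD34 and negative for CD45, CD11b, Sca1 and CD31 were sorted. The sort had no marker against Schwann cells. The fresh group held 5 libraries of cells taken directly after the sort, and the cultured group held 3 libraries of sorted cells kept for 48 h on a 12 kPa hydrogel, with 20% fetal bovine serum in the growth medium listed. Fresh replicates 1 to 3 formed sequencing run 1, and fresh replicates 4 and 5 were sequenced as run 2 together with the 3 cultured libraries. The sources used here do not say whether libraries came from separate or pooled animals, and the p-values therefore cover no more than the library-to-library spread, which may be technical.

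Schwann cells are the glia of peripheral nerves, and in muscle they lie along motor and sensory axons and over the neuromuscular junction. Myelinating Schwann cells wrap an axon in many layers of membrane, held together by myelin proteins such as those made from Mbp and Pmp22. The transcription factor SOX10 is needed for the whole lineage and works with EGR2 to switch on myelin genes. Non-myelinating and injured Schwann cells carry the neurotrophin receptor NGFR instead of a myelin sheath.

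In GRCm38, with positions from GENCODE M21, Pmp22 lies at chr11:63128982-63159547, Cnp at chr11:100574904-100591729 and Ngfr at chr11:95568818-95587735. Prx lies at chr7:27499324-27520214, Mag at chr7:30899176-30914873, Sox10 at chr15:79154908-79165240 and S100b at chr10:76253853-76261159, and Mbp is on chromosome 18. All 8 are protein-coding, and counts are summed per gene.

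Library totals ran from 13919508 to 20068199 counts. At least 1 count was seen on 32710 to 34689 lines in run-1 fresh, 20480 to 20898 in run-2 fresh and 15415 to 17852 in cultured libraries. Pax7, which defines muscle stem cells, stood at 669 to 1362 CPM (counts scaled to a common library size with TMM factors) in the fresh and 51.8 to 92.0 CPM in the cultured libraries. Fresh replicate 1 stood apart from the other fresh libraries in most of the genes described here, so values of the 8 genes are given for every library, and their culture test also without it.

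The letters before the start sites of 3 of these genes are shown as examples of genes at or near 0 in culture: Prx and S100b had no count there, and Mag had few. The stretches are the 250 bases before the RefSeq start site (GRCm38.p6), read 5′ to 3′ on the gene's strand, at chr7:27499074-27499323 (+) for Prx, chr10:76253586-76253835 (+) for S100b and chr7:30914923-30915172 (−) for the Mag start site farthest upstream. Capitals mark ACAAAG or ACAATG on either strand, letters of the kind that SOX proteins bind.
Prx: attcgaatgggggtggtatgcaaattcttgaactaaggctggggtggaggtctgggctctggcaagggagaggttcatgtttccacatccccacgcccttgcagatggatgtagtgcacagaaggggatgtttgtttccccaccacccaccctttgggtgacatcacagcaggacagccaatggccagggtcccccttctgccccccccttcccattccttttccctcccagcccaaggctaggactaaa
S100b: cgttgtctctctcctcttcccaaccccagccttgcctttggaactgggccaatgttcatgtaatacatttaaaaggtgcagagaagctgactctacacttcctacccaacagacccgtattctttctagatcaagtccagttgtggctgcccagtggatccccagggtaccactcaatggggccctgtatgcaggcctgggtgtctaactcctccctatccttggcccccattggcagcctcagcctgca
Mag: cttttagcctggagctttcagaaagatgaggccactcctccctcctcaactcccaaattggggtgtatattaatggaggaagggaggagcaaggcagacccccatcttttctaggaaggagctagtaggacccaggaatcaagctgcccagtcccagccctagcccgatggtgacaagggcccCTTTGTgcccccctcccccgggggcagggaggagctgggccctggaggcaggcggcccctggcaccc
The table of promoters held 6 of the 8 genes, with 11 start sites. Such letters stood before 3 of these 11, 1 of Cnp and 2 of the 3 of Mag, and before 25.2% of all 32851 start sites in the table. Both Mag matches are 1 site read from 2 start sites. In the Mag stretch shown the match begins 67 bases before the start site, on the reverse strand. A match is a description and not a binding site, and neither ACAAAG nor ACAATG occurs in the Prx and S100b stretches.

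All 8 genes were lower in cultured than in fresh cells in every library. The 8 cultured ranges lay below the fresh ones without overlap, a pattern met by 26.1% of all genes tested. In the test across all genes, which has sequencing run as a term and so rests on the run-2 fresh libraries, 6 of the 8 fell and none rose at a Benjamini-Hochberg adjusted p of 0.05 (edgeR quasi-likelihood test). The background was 18.0% of tested genes lower and 8.87% higher. The filter on low counts worked by group, so genes with no count in culture passed it through the fresh libraries alone. Such genes, among them Prx, Sox10 and S100b, could not be called higher in culture. Without fresh replicate 1, 7 of the 8 fell, against 15.3% of the genes tested in that fit. That library is of run 1, so leaving it out alters the estimated spread but hardly the fold changes, which rest on run 2. The fit is therefore no separate check of the fall. In it the log2 fold changes of Mbp, Pmp22 and Ngfr were -6.64, -5.35 and -6.89 (edgeR adjusted p = 0.00557, 0.00141 and 0.00676). Prx, Sox10 and S100b had edgeR adjusted p of 0.00167, 0.00119 and 0.0133, Cnp of 0.0202 and Mag of 0.0959. DESeq2 called all 8 lower, against 23.5% of the genes it tested. The median log2 fold change of the 8 was -6.76, or -6.58 with genes at 0 in culture placed at their lower bound, against -0.21 over all genes tested. In bulk RNA, fewer cells of a type and less RNA per cell cannot be told apart.

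**Figure D1:**
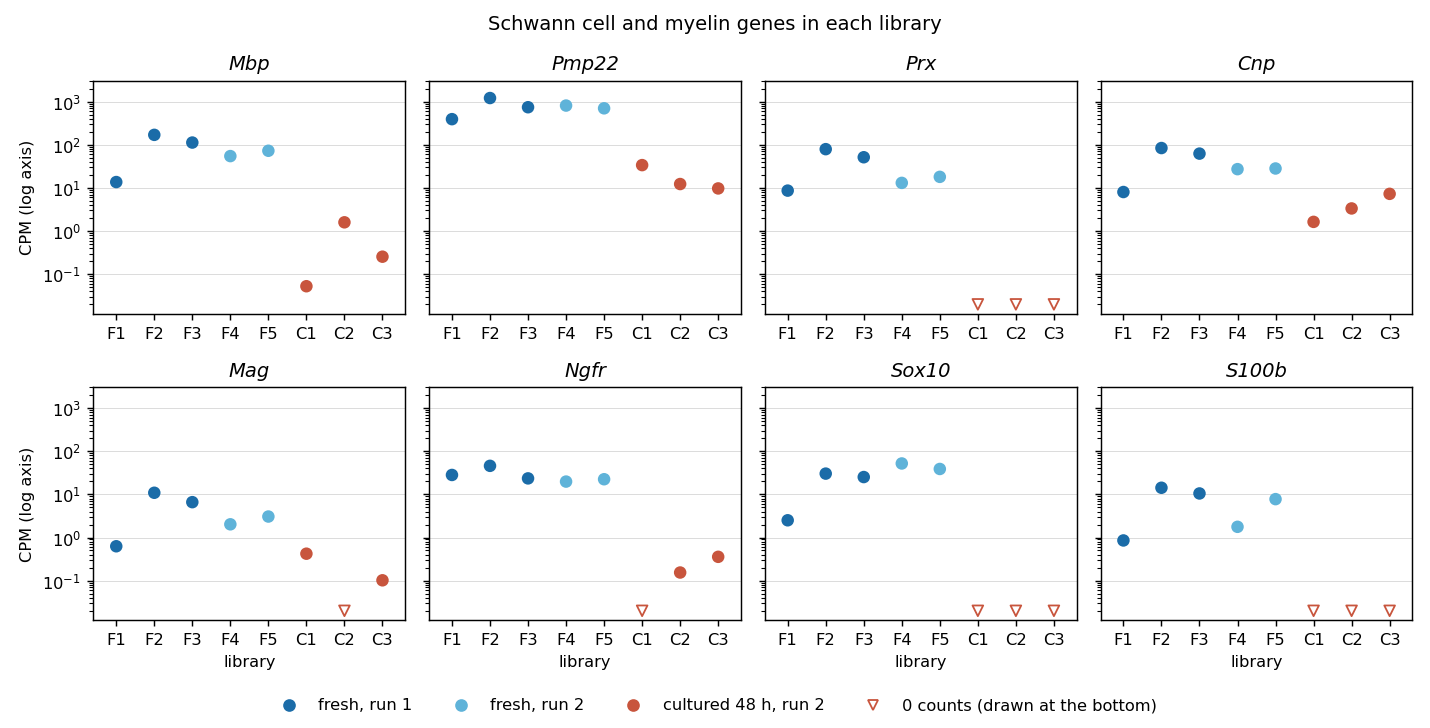
CPM of each gene on a log axis in fresh replicates 1 to 5 (F1 to F5) and cultured replicates 1 to 3 (C1 to C3), 1 point per library, with open triangles for 0 counts. Every cultured point lies below every fresh one, Prx, Sox10 and S100b have no count in culture, and F1 is the lowest fresh library in 7 of the 8 panels, the exception being Ngfr.

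Among the membrane and myelin proteins, Mbp, whose product holds the inner faces of the myelin membrane together, stood at 13.7, 169.8, 113, 54.6 and 72.6 CPM in fresh replicates 1 to 5. In cultured replicates 1 to 3 it was at 0.0527, 1.60 and 0.255 CPM, the highest of which rested on 31 counts. The groups did not overlap, and the lowest fresh library was replicate 1. The group levels of Mbp were 84.7 ± 59.4 and 0.634 ± 0.838 CPM (mean ± SD, n = 5 and 3, as for all group levels). Its log2 fold change was -6.63 ± 1.27 (± SE; edgeR adjusted p = 0.00633). This value, as for all genes in the main fit, rests on the run-2 fresh libraries, where Mbp averaged 63.6 CPM. The log2 fold change was -8.60 without cultured replicate 2 and -6.03 without cultured replicate 1.

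Pmp22 encodes a tetraspan protein of compact myelin and was also found as a gene of growth arrest in fibroblasts. It was the most abundant of the 8, at 392, 1211, 741, 810.2 and 699.6 CPM in fresh replicates 1 to 5. Cultured libraries held 33.8, 12.3 and 9.73 CPM, so the transcript stayed well detected there. Its group levels were 771 ± 293 and 18.6 ± 13.2 CPM. The log2 fold change of Pmp22 in the fit with run as a term was -5.34 ± 0.64 (edgeR adjusted p = 0.000863), and -6.04 without cultured replicate 1. Per kilobase of exon, Pmp22 stood at 327 CPM in fresh cells. Cnp followed at 11.5, Mbp at 9.996, Sox10 at 9.75, Ngfr at 8.10, Prx at 6.11, S100b at 4.73 and Mag at 1.14 CPM per kilobase. Pmp22 exceeded the other 7 in every fresh library on this scale, while the ranges of all later neighbours in this order overlapped.

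Prx, the periaxin gene, whose product links the outer Schwann cell membrane to the basal lamina, was at 8.66, 79.1, 51.4, 13.1 and 18.0 CPM in fresh replicates 1 to 5. It had no count in any cultured library, so it was at least 301-fold lower than the run-2 fresh mean (edgeR adjusted p = 0.00293). This bound sets the cultured group at 3 counts over its 3 libraries, which is 0.0517 CPM. Against fresh replicate 1 alone the bound was 168-fold. Prx exons share 300 bases with an antisense gene, Gm15541, which was at 0.190 to 2.74 CPM in the fresh libraries. The sources used here do not give whether strand was used in counting.

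Cnp encodes an enzyme of the cytoplasmic channels of myelin and is transcribed at low level in many tissues. It stood at 8.03, 84.0, 62.4, 27.2 and 28.2 CPM in fresh and 1.63, 3.35 and 7.29 CPM in cultured replicates. Fresh replicate 1 and cultured replicate 3 nearly met. The log2 fold change of -2.76 ± 0.90 missed the threshold (edgeR adjusted p = 0.0507). Over 17 alternative settings the adjusted p ranged from 0.00842 to 0.158, and it passed in 8 of them. Among these were the fits without fresh replicate 1 (edgeR log2 fold change -2.76; adjusted p = 0.0202) and without cultured replicate 3 (edgeR log2 fold change -3.45; adjusted p = 0.0353). Cnp exons share 154 bases with Dnajc7 on the other strand, a gene that was at 39.3 to 69.5 CPM in fresh and 58.0 to 120.3 CPM in cultured libraries, and unstranded reads from these bases cannot be told apart.

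Mag, an adhesion molecule of the membrane facing the axon, was low throughout, at 0.627, 10.9, 6.60, 2.02 and 3.06 CPM in fresh replicates. Cultured replicates 1 and 3 held 8 and 2 counts (0.422 and 0.102 CPM) and replicate 2 none. Here too fresh replicate 1 came close to the highest cultured library. Mag had a log2 fold change of -3.81 ± 1.55 and did not pass (edgeR adjusted p = 0.10). The adjusted p ranged from 0.0231 to 0.253 over 17 alternative settings. It passed in 4 of them, and of the fits with 1 library left out only in that without cultured replicate 1 (edgeR log2 fold change -5.39; adjusted p = 0.0373).

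Ngfr, the low-affinity neurotrophin receptor, behaved otherwise among fresh libraries, at 28.1, 45.8, 23.4, 19.8 and 22.4 CPM in replicates 1 to 5. Fresh replicate 1 was second highest there, and the highest fresh library exceeded the lowest by 2.32-fold, the narrowest range of the 8. In culture Ngfr had 0, 3 and 7 counts, or 0, 0.154 and 0.357 CPM. It fell by 6.89 ± 0.99 on the log2 scale (edgeR adjusted p = 0.00197), with -7.93 without cultured replicate 3 and -6.26 without cultured replicate 1.

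Sox10, the lineage transcription factor, was at 2.51, 30.3, 25.2, 52.0 and 38.8 CPM in fresh replicates 1 to 5. Both run-2 libraries were above all 3 of run 1, whereas Prx was lower in run 2 than in fresh replicates 2 and 3. No cultured library held a count, which makes Sox10 at least 878-fold lower than the run-2 fresh mean (edgeR adjusted p = 0.00266), and 48.5-fold against fresh replicate 1 alone. S100b, a calcium-binding protein used as a marker of Schwann cells, was at 0.855, 14.2, 10.5, 1.77 and 7.75 CPM in fresh replicates and had no count in culture. It was at least 92.1-fold lower than the run-2 fresh mean (edgeR adjusted p = 0.0136). The bound was 34.2-fold without fresh replicate 5 and 149.97-fold without fresh replicate 4, and the call was lost without replicate 5 (edgeR adjusted p = 0.0537, the highest over 17 alternative settings, with 5.576e-06 the lowest).

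With the run-1 fresh libraries alone as the fresh group, all 8 passed the test in the downward direction, where 25.4% of tested genes did. There every fresh library is of run 1 and every cultured one of run 2, so culture and run cannot be told apart, and the run-1 libraries also had more genes with a count. Cnp then had a log2 fold change of -3.57 (edgeR adjusted p = 0.0227) and Mag of -5.04 (edgeR adjusted p = 0.0476). Between the fresh libraries of the 2 runs, none of the 8 passed the test, as against 0.189% of all genes. Sox10 had the only positive difference, a log2 fold change of run 2 over run 1 of 1.23 ± 0.94 (edgeR adjusted p = 0.683), and Prx the most negative at -1.58 ± 0.91 (edgeR adjusted p = 0.523).

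Within run 1, fresh replicate 1 was far below the other libraries in 7 of the 8 genes. They were at least 2-fold below the mean of fresh replicates 2 and 3, as were 9.71% of all genes tested (on log2 CPM with a prior count of 2). The mean of replicates 2 and 3 exceeded replicate 1 by 14.5-fold for S100b, 13.9-fold for Mag, 11.1-fold for Sox10, 10.3-fold for Mbp, 9.11-fold for Cnp and 7.54-fold for Prx. For Pmp22 it did so by 2.49-fold and for Ngfr by 1.23-fold. With 1 library on one side this difference has no test.

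**Figure D2:**
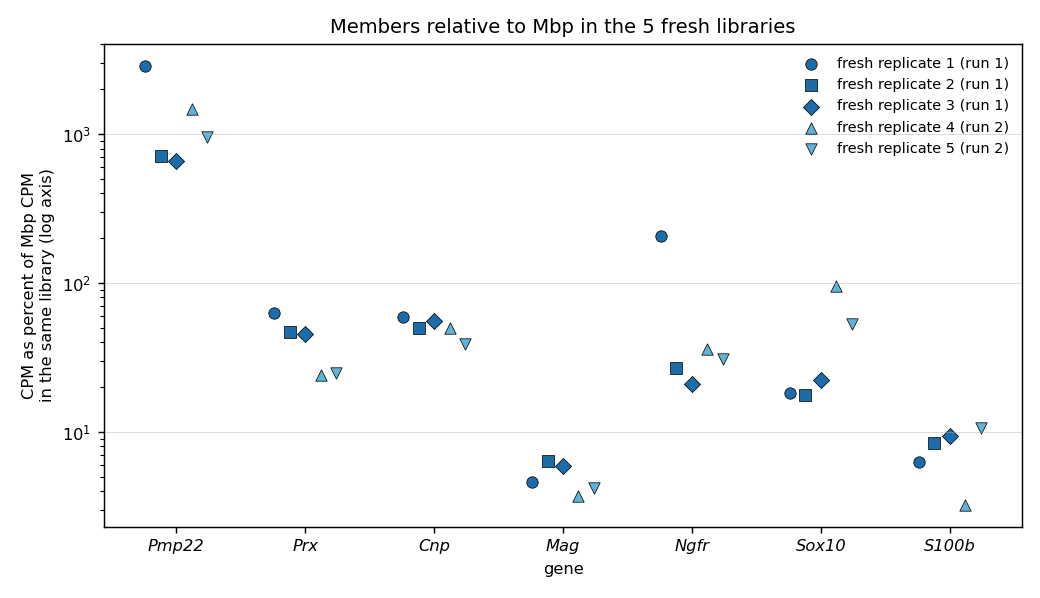
CPM of the other 7 genes as a percent of Mbp CPM in the same library, on a log axis, with 1 symbol per fresh library. For Cnp the 5 libraries lie between 38.8 and 58.8%, while fresh replicate 1 stands above the others for Pmp22 and Ngfr and both run-2 libraries stand above run 1 for Sox10.

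Taking each gene relative to Mbp in the same library showed which moved with it. Cnp was at 58.8, 49.5, 55.4, 49.8 and 38.8% of Mbp in fresh replicates 1 to 5, although Mbp itself varied 12.4-fold among them. Prx was at 63.3, 46.6 and 45.7% in run 1 and at 23.9 and 24.8% in run 2. Mag stayed between 3.70 and 6.41%. Sox10 was at 18.3, 17.8 and 22.4% in run 1 and at 95.1 and 53.4% in run 2. S100b ranged from 3.24% in replicate 4 to 10.7% in replicate 5, and the other fresh libraries lay between. Ngfr stood apart, at 206% in replicate 1 and 20.8 to 36.2% in the others, as did Pmp22, at 2869% in replicate 1 and 659 to 1483% in the others. In run 1, then, Mbp, Prx, Cnp, Mag, Sox10 and S100b kept similar proportions while their levels differed about as much as Mbp did, and Ngfr and Pmp22 did not keep them.

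Another 61 genes of Schwann cells and myelin were taken from 5 lists, and 55 of them were tested. In culture, 39 fell and 1 rose, while 15 missed the threshold, against 18.0% of all genes tested lower and 8.87% higher. The same background applies to each list below. The median log2 fold change was -7.09, or -5.73 with genes at 0 in culture at their bound. Of the 61 genes, 23 had no count in culture and could not be called higher there. With run 2 alone, 32 fell and none rose, where 10.9% of all genes tested fell and 6.24% rose. Each list gene named below as called also passed without fresh replicate 1, in a fit whose fold changes rest on the same run-2 libraries. Of 14 tested structural genes 11 fell. Mpzl2, an adhesion protein, was at 39.4, 30.1, 111, 52.8 and 45.1 CPM in fresh replicates 1 to 5. Its 1 count in culture was in replicate 2, and the run-2 fresh level exceeded the cultured one by a ratio of 2842 (95% counting interval 509 to 112332; edgeR adjusted p = 0.000253). Gldn and Nfasc, which act at the node of Ranvier, lacked counts after culture and were at least 205-fold and 165-fold lower (edgeR adjusted p = 0.00759 and 0.00404).

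Of 10 tested regulators, 7 fell and none rose. Pou3f1, a factor of the step before myelination, was at 0.855 to 9.42 CPM in the fresh libraries, with no count after culture, and was at least 84.2-fold lower (edgeR adjusted p = 0.00930). Foxd3, a neural crest factor, was at 0.0570 to 4.23 CPM in fresh cells and at 0 in culture, at least 53.2-fold lower (edgeR adjusted p = 0.0176). Without fresh replicate 5 the bound was 24.4-fold and the call was lost (edgeR adjusted p = 0.0547), and without fresh replicate 4 it was 81.9-fold. Id4, an inhibitor of basic helix-loop-helix factors, had 1 count in culture, in replicate 1, against 1.14 to 19.3 CPM in fresh cells, a run-2 ratio of 1016 (95% counting interval 182 to 40212; edgeR adjusted p = 0.00241). Etv1, an ETS factor, was at 5.70 to 36.7 CPM in fresh cells and had 4 counts in culture, all in replicate 3 (log2 fold change -8.73; edgeR adjusted p = 0.00261). The log2 fold change of Etv1 was -8.14 without cultured replicate 1 and -12.11 without cultured replicate 3, where no count is left and the size depends on the fit.

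Among 14 signalling genes, 8 fell and 1 rose. Erbb3, the neuregulin receptor on which Schwann cells depend, was at 9.97, 40.2, 38.0, 28.2 and 36.3 CPM in fresh replicates, and with no cultured count it was at least 623-fold lower (edgeR adjusted p = 0.000955). The endothelin receptor Ednrb, the secreted Lgi4 and the neurotrophin receptor Ntrk3 likewise had no count in culture. They were at least 221, 215 and 127-fold lower, with edgeR adjusted p of 0.00543, 0.00348 and 0.00483, and without fresh replicate 4 the bound of Lgi4 was 136-fold. The riser was Nrg1 (chosen for naming once its value was known), a ligand of Erbb3. It was at 0.0651 to 1.01 CPM in fresh and 46.9, 11.9 and 5.15 CPM in cultured replicates (log2 fold change 5.29 ± 1.48; edgeR adjusted p = 0.0289). The log2 fold change was 8.22 without fresh replicate 4 and 4.03 without cultured replicate 1. The call was lost without fresh replicate 5 (4.37; edgeR adjusted p = 0.121) and with run 2 alone (edgeR adjusted p = 0.0931).

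Among 9 tested genes of non-myelinating or immature Schwann cells, 7 fell and none rose. In the list headed myelin lipids, whose members are not all lipid enzymes, 6 of 8 fell and none rose. Yet the summed level of that list did not fall, at 226 to 321 CPM in fresh and 227 to 344 CPM in cultured libraries. The non-myelinating list summed to 650 to 903 CPM in fresh and 424 to 595 CPM in cultured libraries. Structural genes summed to 1219 to 2004 and 111 to 259 CPM in turn. These ranges were 994 to 1972 and 370 to 470 CPM for regulators, and 295 to 577 and 43.6 to 242 CPM for signalling genes. Of the structural sums, Drp2 alone held 858 to 1116 CPM in fresh and 110 to 254 CPM in cultured libraries. Of the regulator sums, Zeb2 alone held 462 to 1292 and 286 to 404 CPM. In culture both sums thus rested largely on these genes, which were named once their values were known. Cdh19, a cadherin of Schwann cells, was at 1.20, 9.55, 17.3, 31.9 and 21.04 CPM in fresh replicates and at 0 in culture, at least 512-fold lower (edgeR adjusted p = 0.00418). Its run-2 libraries lay above those of run 1, as for Sox10. Scn7a, a sodium channel relative of glia, was at 30.9 to 165 CPM in fresh cells and had 1 count in culture, in replicate 1, a run-2 ratio of 5554 (95% counting interval 996 to 219445; edgeR adjusted p = 0.000226). Fabp7, a fatty acid binding protein of immature glia, lacked any cultured count, which puts it at least 38.6-fold lower (edgeR adjusted p = 0.0133). Ugt8a, the enzyme that makes the galactolipids of myelin, was at 3.48 to 24.2 CPM in fresh cells and at 0 in culture, at least 356-fold lower (edgeR adjusted p = 0.00206). Pllp and Gpr37l1 were also at 0, at least 69.5-fold and 94.3-fold lower (51.7-fold for Gpr37l1 without fresh replicate 4), and Aspa, which frees acetate from N-acetylaspartate, had 4 counts (edgeR adjusted p = 0.00711, 0.00711 and 0.00179 in turn). Without cultured replicate 3 the log2 fold change of Aspa was -9.67, against -8.50, and without cultured replicate 1 it was -7.91.

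**Figure D3:**
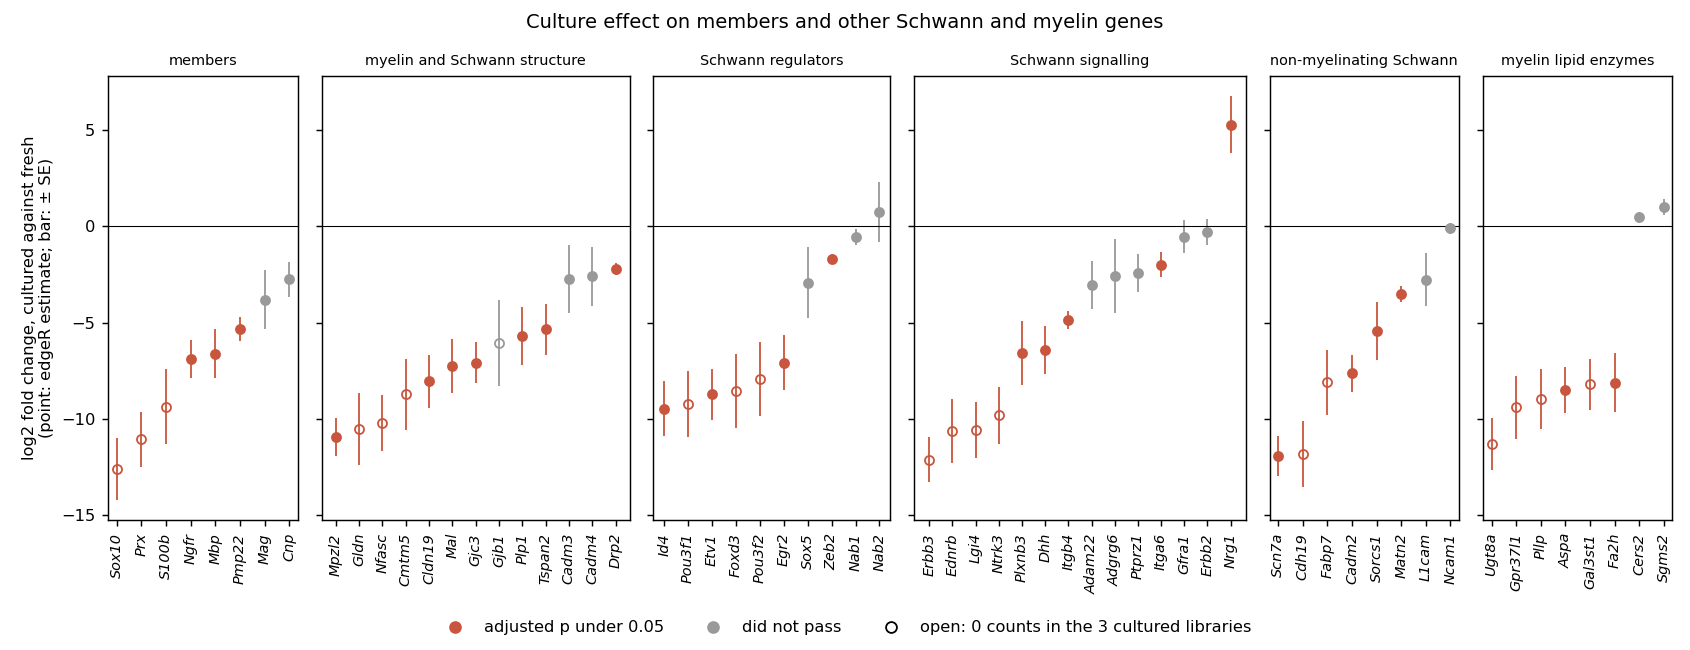
Log2 fold change of cultured against fresh cells (edgeR estimate ± SE) for the 8 genes and for other tested genes, by list, red where the adjusted p was under 0.05 and open where the cultured libraries had no count, so that the size there depends on the fit. Most points lie below 0, and Nrg1 is the 1 red point above it. The panel headed myelin lipid enzymes also holds genes that are not lipid enzymes.

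Some genes of these lists did not share the low level of fresh replicate 1, among them Drp2 and Egr2, named here after their values were seen. Drp2, a dystrophin relative, was at 1116 CPM in fresh replicate 1 and 858 to 1040 CPM in the others. Egr2, which is also an immediate early gene outside Schwann cells, was at 529 CPM there and 411 to 518 CPM in the others. Over the 55 tested genes, the median log2 difference of replicate 1 from replicates 2 and 3 was -1.72. At least 2-fold lower were 33 of the 55, against 9.71% of all genes tested. These 33 were 12 of 14 structural genes, 3 of 10 regulators, 8 of 14 signalling and 5 of 9 non-myelinating genes, and 5 of 8 in the list headed myelin lipids. The median was -3.24 over the 8 genes first described and -0.03 over all genes tested.

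**Figure D4:**
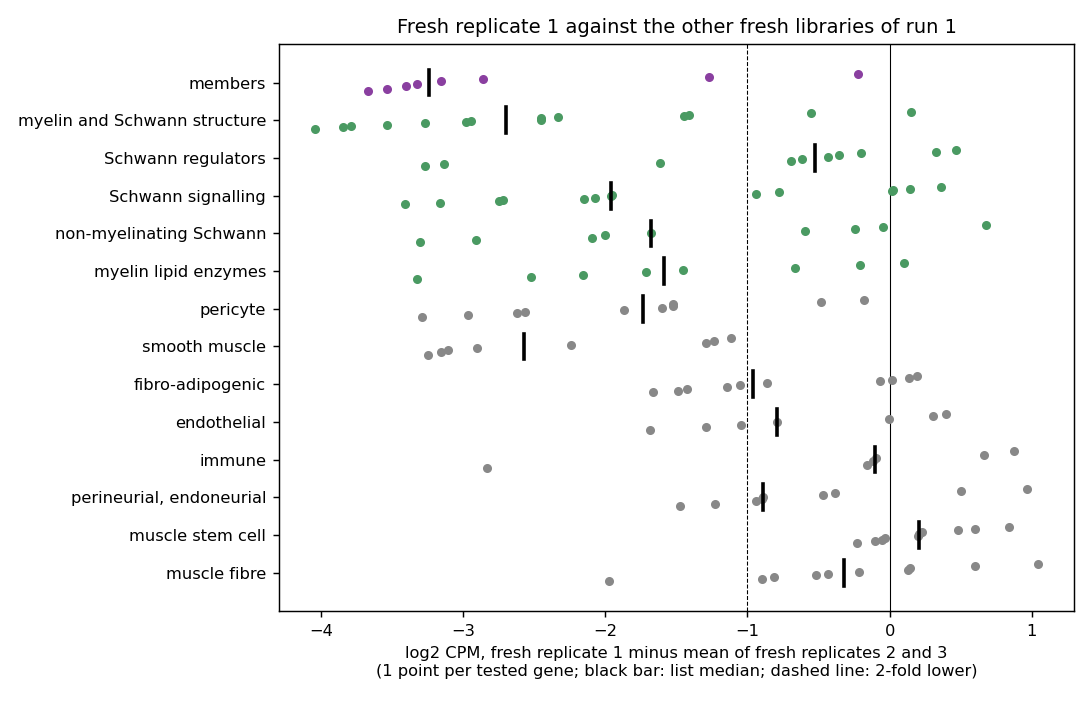
Log2 CPM of fresh replicate 1 minus the mean of fresh replicates 2 and 3, 1 point per tested gene, with the list median as a black bar. The medians are -3.24 for the 8 genes, -2.57 for smooth muscle, -1.74 for pericyte and 0.21 for muscle stem cell genes. Not all genes in the line labelled myelin lipid enzymes are lipid enzymes.

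Most markers of cells around vessels were also low in fresh replicate 1. At least 2-fold below replicates 2 and 3 were 8 of 10 pericyte and 8 of 8 smooth muscle genes, against 9.71% of all genes tested. The summed level of 10 pericyte genes, led by Rgs5 and Notch3, was 666, 2686, 2187, 1799 and 1642 CPM in fresh replicates 1 to 5 and 18.6 to 26.7 CPM in culture, and Kcnj8, Abcc9 and Vtn had no count in culture. Rgs5 made up much of this sum, at 140.1 CPM in fresh replicate 1 and 908 to 1391 CPM in the others, while Notch3 and Vtn differed there by a log2 of only -0.18 and -0.48. For 8 smooth muscle genes, led by Acta2 and Myh11, it was 243 CPM in fresh replicate 1, 503 to 802 CPM in the other fresh libraries and 40.8 to 138 CPM in culture, with Cnn1, Lmod1 and Myocd at 0 there. The 10 fibro-adipogenic genes, led by Col3a1 and Dcn, were at 834 to 1404 CPM in fresh and 27.8 to 65.6 CPM in cultured libraries, the lowest fresh value again in replicate 1, with Ly6a and Pi16 at 0 in culture. The 10 endothelial genes, led by Tek and Cdh5, ranged from 89.96 CPM in fresh replicate 2 to 128 CPM in replicate 3, with 91.4 CPM in replicate 1, and from 1.70 to 46.9 CPM in culture. The 10 immune genes, led by Lyz2 and Cd68, were at 26.3 to 72.9 CPM in fresh and 0.357 to 7.41 CPM in cultured libraries. Among those with no count in culture were Kdr, Tie1, Egfl7, Erg and Cldn5 of the first and Adgre1, Csf1r, Lyz2 and Tyrobp of the second. The 9 perineurial and endoneurial genes, led by Etl4 and Slc2a1, were at 420.05 to 646 CPM in fresh and 139 to 234 CPM in cultured libraries, with Cldn1 and Lypd2 at 0 in culture. The 10 muscle stem cell genes, led by Sdc4 and Pax7, summed to 6279.7 CPM in fresh replicate 1 and 5785 to 6040.05 CPM in the other fresh libraries, and to 1054 to 1183 CPM in culture. The 10 muscle fibre genes, led by Ttn and Actn3, were at 144 to 178 CPM in fresh and 128 to 258 CPM in cultured libraries, where Myh2 was at 0. The part of other cells in the differences of the 8 genes was not tested.

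The genes whose pattern over the 8 libraries was closest to each of the 8 were found by the root mean square difference of centred log2 CPM among 13009 genes. For Mbp the closest was Cldn19, a tight junction gene of Schwann cells (0.48), followed by Itga1 and Pcdh19. For Sox10 it was Ptn, a secreted growth factor (0.30), then Lyz2 and Kank4, and for Prx it was Kif1a, an axonal transport kinesin (0.38), then Adgrf5 and Lama4. For S100b they were Cdh1 (0.39), Fam107a and Nfatc4, and for Mag Grip2 (0.65) and Adap2os were among the closest. Pmp22 was closest to Ppargc1a (0.33), Dcn and Fchsd1, Cnp to Mrgprh (0.58), Frzb and Tpm2, and Ngfr to Dclk3 (0.37), Fam117a and Mapt. Dclk3 was at 40.9 CPM in fresh replicate 1 and 27.2 to 29.4 CPM in the other fresh libraries, so like Ngfr it was not low there.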

How the data were processed

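Expected counts for every gene and library were deposited in 1 table. STAR, RSEM and build mm10 are named in the submitters' processing notes, and the sources used here do not give versions, annotation or the use of strand. RNA was amplified with NuGEN Ovation before Illumina library construction, per the labels' protocols. Counts were rounded to whole numbers, 92 spike-in lines were left out, and lines with no identifier (0.385 to 0.568% of counts) were kept. Positions are from GENCODE M21 (GRCm38), which matched all 8 genes.

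Genes were kept by filterByExpr, applied by group, and scaled by TMM factors. Differences were tested with edgeR 4.0.16 (quasi-likelihood, R 4.3.3, 5 residual degrees of freedom) with run and culture as terms. The fit was also run on simulated counts with the same spread for every gene. Changes there were smaller than those of most of the 8 genes, so that check does not cover them. DESeq2 1.42.0 was an alternative. Each standard error is an approximation, the fold change over the root of F. Counting intervals are exact binomial at 95%, and these and floors cover counting error only. The length per kilobase is the union of annotated exons. In each list, the text names at most 4 called genes, by size of fold change, averaging 1 CPM or more, and for other cell types the 2 most abundant. The 8 genes and all lists were chosen with earlier results of these data known. A few genes that these rules name are not reported here.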

Additional observations from a re-analysis of the deposited data

Results flagged for a closer look

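Of the 28 genes checked for a library far from the rest of the 5 fresh ones, 1 had one. Mpzl2 was at 111 CPM in fresh replicate 3 and at 30.1 to 52.8 CPM in the other fresh libraries, a gap of 0.719 of the range against a critical value of 0.710. Chance gives such a gap in about 1 of 20 groups. Fresh replicate 1 did not reach this limit for any of the 28 genes. The gap was taken on CPM and not on log2 CPM, where a library many-fold below the others is hard to flag. The check therefore does not bear on the low levels of fresh replicate 1 given above.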

How the results depend on the processing

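Over the 8 genes, the direction of the culture difference held under all 17 alternatives, and 12 single-gene values gained and 2 lost the call. The 6 called members became 5 without fresh replicate 5, 7 without fresh replicate 1, cultured replicate 1 or cultured replicate 3, 7 with DESeq2 size factors or no filter, and 8 with the DESeq2 test, without the run term or with run-1 fresh libraries alone. The background moved too. Of all genes tested in each fit, 3431 fell in the main fit and 2441 without fresh replicate 5. Without fresh replicate 1, cultured replicate 1 or cultured replicate 3, 2621, 3965 and 3748 fell. DESeq2 size factors gave 3549 and no filter 3563. The DESeq2 test gave 4342, no run term 4646 and run-1 fresh libraries alone 4651. For Pmp22 the run difference of -0.05 became 0.039 with no filter, 0.39 without fresh replicate 2 and 0.10 without fresh replicate 5, all of them uncalled, and ranged from -0.40 to 0.39 with 1 library left out.

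Other counts moved more. Over all genes, with run 2 alone 1767 fell and 1013 rose in culture, against 3431 and 1691, and none of the other Schwann and myelin genes rose. Without scaling factors 2 of those rose and 10 genes of all were higher in run 2. Between runs, 18 genes were higher and 18 lower in run 2. These became 487 and 319 with fresh libraries alone, 322 and 599 with DESeq2, and 50 and 31 with no filter. Of the other Schwann and myelin genes, 3 with fresh libraries alone and 1 with DESeq2 were then higher in run 2. With 1 library left out, 896 to 2198 of all genes rose and 2441 to 3965 fell in culture, 0 to 3 of the other Schwann and myelin genes rose, and between runs 1 to 70 were higher and 0 to 47 lower in run 2.

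Whether replicate numbers shared by the groups pair the samples was not settled. Same-numbered libraries deviated with a correlation of 0.03, 0.01 and 0.011, and differently numbered ones with -0.018 to 0.01. Correlations this small over so few libraries cannot show whether samples were paired. With the replicate number as a block, 1384 genes fell in all, 6 of the 8 genes and 29 of the other Schwann and myelin genes. That fit left out the run-2 fresh libraries, so culture and run cannot be told apart in it. Its differences from the main fit are not those of the block alone. Cnp then passed (edgeR adjusted p = 0.0233), and S100b (0.0507), Id4 (0.0647) and Pou3f1 (0.0615) did not. Depth limits Prx, Sox10 and S100b, whose bounds in culture rest on 3 counts over 3 libraries.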

Other observations

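Markers of the central nervous system were low in these cells. The 9 oligodendrocyte genes, led by Mobp and Myrf, summed to 10.8, 8.88 and 6.96 CPM in the run-1 fresh libraries, 1.07 and 0.261 CPM in run-2 fresh libraries and 0 to 2.19 CPM in culture. Olig1 had counts in fresh replicate 2 alone, at 0.134 CPM. The 8 neuronal genes, led by Elavl3 and Stmn2, summed to 9.23, 5.41 and 10.4 CPM in run-1 fresh libraries, 0.758 and 0.977 CPM in run-2 fresh libraries and 0.153 to 0.474 CPM in culture. Unlike Mbp, Mag and Prx, these lists were not low in fresh replicate 1, and they were low in run 2, whose libraries also had fewer genes with a count.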
